A study of Enchytraeus crypticus with 9 samples.

Results

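A group of array probes gave a detected signal in cocoons of the potworm Enchytraeus crypticus in clean soil and in soil with 16 mg Cd/kg, but not with 5 mg Cd/kg. The probes were chosen by the detection marks of the scanner software. A spot had to carry the mark for well above background on the 3 control arrays and the 3 arrays at 16 mg Cd/kg, and to lack it on each 5 mg Cd/kg array. Of 43750 probes, 320 met this rule. The 300 with the highest mean control level were kept as members, and the 20 left out were the dimmest. E. crypticus is a small soil-dwelling oligochaete worm used in soil toxicity tests, and its eggs develop in cocoons laid in the soil. Cocoons laid 1 to 2 days earlier were kept for 1 day in un-spiked LUFA 2.2 soil, a natural standard soil (control), or in the same soil spiked with cadmium at 5 or 16 mg Cd/kg. Each sample was RNA from a pool of 300 whole cocoons, labelled with the dye Cy3 and hybridised to its own 1-colour Agilent array, with 3 samples a group. No strain or genotype is given in the labels, and the RNA comes from all tissues of the embryos at once, so that fewer cells of a type and less RNA per cell cannot be told apart. Samples of 1 group are described as biological replicates in the labels, so the spread is that between pools.

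Cadmium is a metal with no known use in animal cells. It binds the sulphur groups of proteins and can displace zinc, and animal cells commonly answer it with metallothioneins, small proteins that bind metals, and with heat shock proteins and glutathione enzymes. In the early embryo, RNA laid down by the mother is replaced by RNA made by the embryo itself, so that many transcripts change in level over a short time. Which of these processes the members belong to was not tested. The probes carry assembly names (contigs, sequences joined from several reads) or the names of single sequencing reads, and the files used here pair neither with a gene name or a sequence.

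The marks, signals at 5 mg and differences from 5 mg chose the members and are given as a description. The pattern was rare: 21213 probes were well above background on all control and all 16 mg arrays, and 1.51% of them were so on no 5 mg array. A further 902 were above it on 1 array at 5 mg, 3039 on 2 and 16952 on all 3. Seen from the other side, 2632 probes were lost at 5 mg relative to control. At 16 mg Cd/kg, 588 of these (22.3%) were above background on no array, 787 (29.9%) on 1 array, 937 (35.6%) on 2 arrays and 320 (12.2%) on all 3. The mirror pattern, detected in control and at 5 mg but on no array at 16 mg, held for 2 probes, and detection on all 6 cadmium arrays with no control array held for 4.

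The members were dim transcripts. Levels are log2 of the processed signal minus log2 of the 75th percentile of that array, so that 0 is the brightness of the 75th percentile. The median mean control level was -2.29 for members, against 0.08 for the 21213 probes detected on all control and 16 mg arrays and -2.95 for the 588 lost at both doses. Among those 21213 probes, the share undetected at 5 mg was 13.4% below a control level of -3 (22 of 164) and 13.4% between -3 and -2.5 (86 of 642). It was 10.04% between -2.5 and -2 (143 of 1424) and 2.79% between -2 and -1.5 (52 of 1866). Between -1.5 and -1 it was 0.591% (13 of 2199), and at -1 or above 0.0268% (4 of 14918). The pattern was thus found almost wholly among dim probes, which the rule itself favours. A probe bright in controls could meet it only by a large drop at 5 mg, so nothing is read from this decline.

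**Figure D1:**
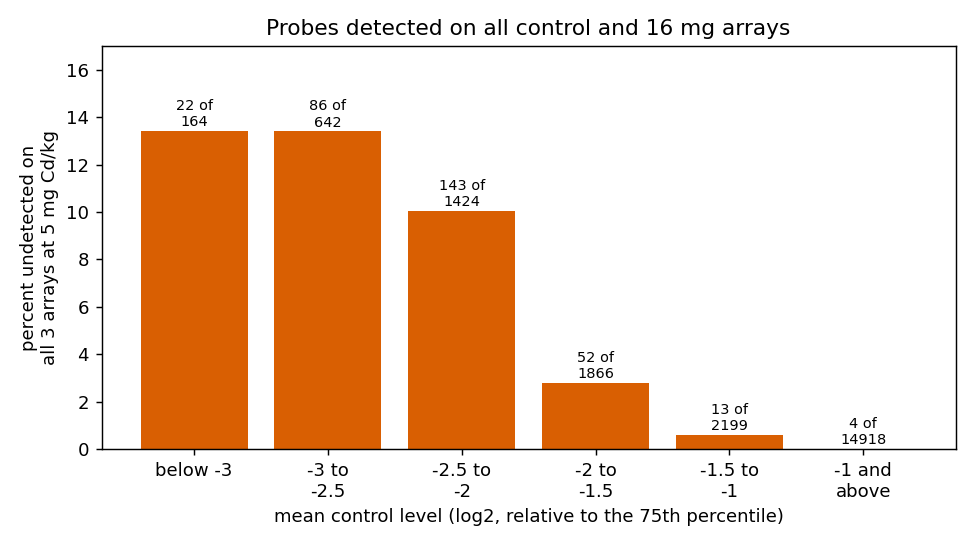
Share of probes undetected on all 3 arrays at 5 mg Cd/kg (percent, vertical axis) among the 21213 probes detected on all control and 16 mg arrays, by mean control level (log2, horizontal axis). Numbers above the bars give the undetected probes and all probes of the bin. The share is 13.4% in both dimmest bins and 0.0268% in the brightest, a decline that the rule itself favours.

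On the linear scale of each array, the median processed signal of the members was 16.4, 15.7 and 14.6 array units on control arrays 1 to 3. At 5 mg Cd/kg it was 6.01, 5.29 and 6.40, and at 16 mg Cd/kg 8.86, 9.81 and 11.4. The means of these medians were 15.6 ± 0.888 in controls, 5.90 ± 0.56 at 5 mg and 10.02 ± 1.28 at 16 mg (SD, n = 3 each). The arrays at 16 mg lay between the other groups, with no overlap of the medians. Single members overlapped more: 286 of 300 had a signal on all 3 arrays at 5 mg below every control, and 213 had one below every array at 16 mg. The shares over all probes were not computed on this unscaled signal, and the rule used the 5 mg signals, so nothing is read from these counts. The 5 mg arrays were also dimmer than controls by the median of all deposited values. This median was 15.6, 15 and 13.6 in controls, 7.23, 7.41 and 11.3 at 5 mg, and 7.99, 12 and 13.8 at 16 mg. By the 75th percentile, however, 5 mg array 3 was brighter than every control (84.9 array units, against 78.1, 74.4 and 74.5).

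The mark for detection is a different cutoff on every array. On each array 1 value of the background-subtracted signal separated marked from unmarked probes, with 0 exceptions. For controls 1 to 3 it was 6.58, 5.10 and 7.45 array units. At 5 mg Cd/kg it was 9.43, 8.86 and 9.25, and at 16 mg Cd/kg 7.43, 6.38 and 7.45. The 5 mg arrays thus had the 3 highest cutoffs of the 9. The members' median background-subtracted signal was 16.9, 16.3 and 14.8 in controls, 6.21, 5.61 and 6.56 at 5 mg, and 9.08, 10.03 and 11.7 at 16 mg. On 5 mg arrays 1 to 3 these medians were 65.9%, 63.3% and 71.0% of the cutoff, and on 16 mg arrays 1 to 3 they were 122%, 157% and 158% of it. On control arrays 1 to 3 they were 256%, 321% and 198%.

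**Figure D2:**
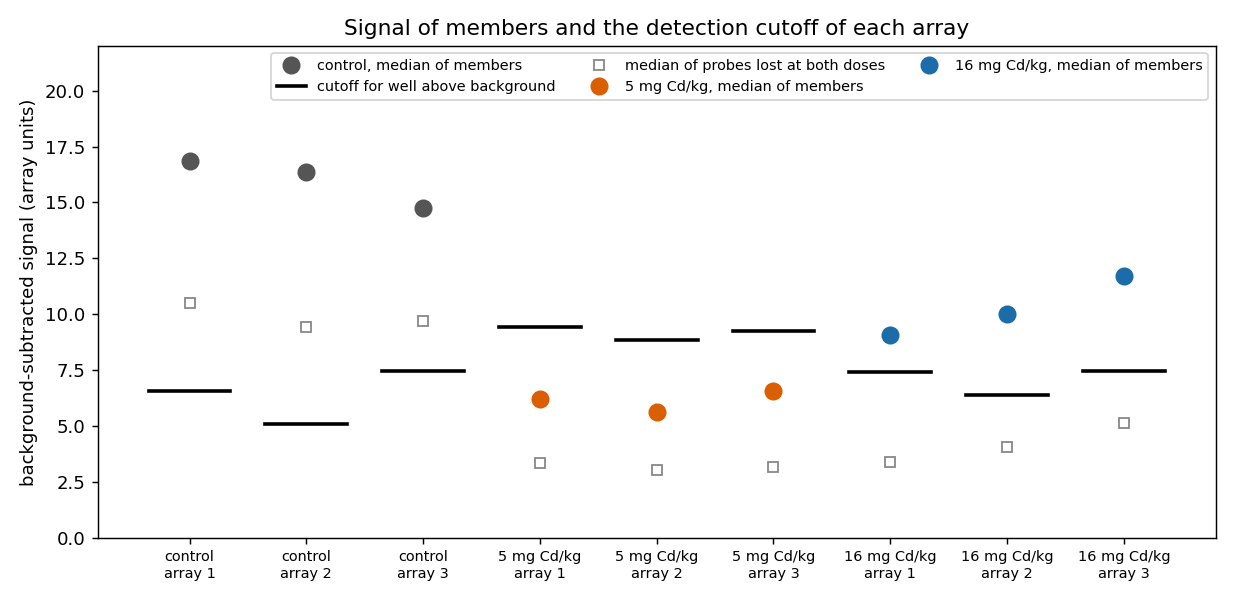
Median background-subtracted signal of the 300 members (filled circles, array units, vertical axis) on each of the 9 arrays, with the cutoff for a spot well above background on that array (black bars) and the median of the 588 probes lost at both doses (open squares). The members lie below the cutoff on the 3 arrays at 5 mg Cd/kg, where the cutoffs are highest (8.86 to 9.43), and above it on the other 6.

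The members lay near these cutoffs on the cadmium arrays, and further above them in controls. The highest of the 3 arrays at 5 mg reached a median of 85.4% of the cutoff over members, and 109 members came within 10% of it. Under 50% of the cutoff on all 3 arrays at 5 mg lay 7 members. The lowest of the 6 control and 16 mg arrays stood at a median of 115% of the cutoff, 111 members were within 10% above it, and 0 members were at least 2 times the cutoff on all 6. Just outside the rule, the 902 probes detected on 1 array at 5 mg had a median of 140% of the cutoff on that array, and 147 of them were within 10% above it. That array was the first in 218 cases, the second in 219 and the third in 465. At the limit of 300 members, the last probe kept had a mean control level of -3.02 and the first left out -3.03, and the dimmest left out stood at -3.51.

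A weaker mark of the same software, for a signal that is positive and significant against background, was set for all 300 members on every control and 16 mg array. At 5 mg Cd/kg it was set for 283, 288 and 294 members on arrays 1 to 3, and for 266 on all 3. Most members therefore still gave a measurable signal at 5 mg Cd/kg, and "undetected" here means only not well above background. With the highest of the 9 cutoffs (9.43) applied to every array, 83 probes met the rule, 69 of them members. With the lowest (5.10) on every array, 114 did, 14 of them members. With 1 cutoff set on the level scale (-2.02), 18 did, 0 of them members. These common cutoffs were chosen after seeing the data.

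Single arrays set the size of the group too. Leaving out 5 mg array 1, 2 or 3 took the 320 probes to 538, 539 or 785, and leaving out 16 mg array 1 took them to 1134, since fewer arrays then have to meet the rule. Of the 937 probes lost at 5 mg and detected on 2 arrays at 16 mg, 814 were missing on 16 mg array 1. That array was dimmer than the others of its group, with a 75th percentile of 48.9 array units, against 79.6 and 87.3 on 16 mg arrays 2 and 3. The 75th percentile was 38.3, 50.5 and 84.9 at 5 mg, against 78.1, 74.4 and 74.5 in controls. Local background around the members' spots averaged 43.5, 38.3 and 34.9 array units at 5 mg and 38.5, 37.2 and 34.5 at 16 mg, against 29.7, 31.1 and 34.7 in controls. The part of array brightness and background in the pattern was not tested.

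Set relative to the 75th percentile, the members' median level was -2.25, -2.24 and -2.35 in controls, -2.67, -3.25 and -3.73 at 5 mg, and -2.46, -3.02 and -2.94 at 16 mg. On this scale the doses overlapped: 5 mg array 1 stood above 16 mg arrays 2 and 3. The means were -2.28 ± 0.06 in controls, -3.22 ± 0.53 at 5 mg and -2.81 ± 0.30 at 16 mg (SD, n = 3 each). Of the 300 members, 192 lay below the lowest control on 5 mg array 1, 278 on array 2 and 298 on array 3. Against the lowest 16 mg array, the counts were 79 on 5 mg array 1, 163 on array 2 and 277 on array 3. The shares over all probes were not computed for single arrays, so these counts are a description. The median level of all probes also fell over these arrays, with -2.40, -2.77 and -2.91 on 5 mg arrays 1 to 3. It was -2.32, -2.31 and -2.45 in controls and -2.61, -2.73 and -2.66 at 16 mg. The cutoffs can be put relative to the same 75th percentile, as log2 of the background-subtracted value. They stood at -3.57, -3.87 and -3.32 in controls, -2.02, -2.51 and -3.20 at 5 mg, and -2.72, -3.64 and -3.55 at 16 mg. The mean control level of 215, 66 and 0 members was under the cutoff of 5 mg arrays 1, 2 and 3. Levels come from the processed signal, however, and probes were marked at levels down to -2.28, -2.72 and -3.32 on these arrays. The counts thus do not tell which members would have been marked there at their control level.

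**Figure D3:**
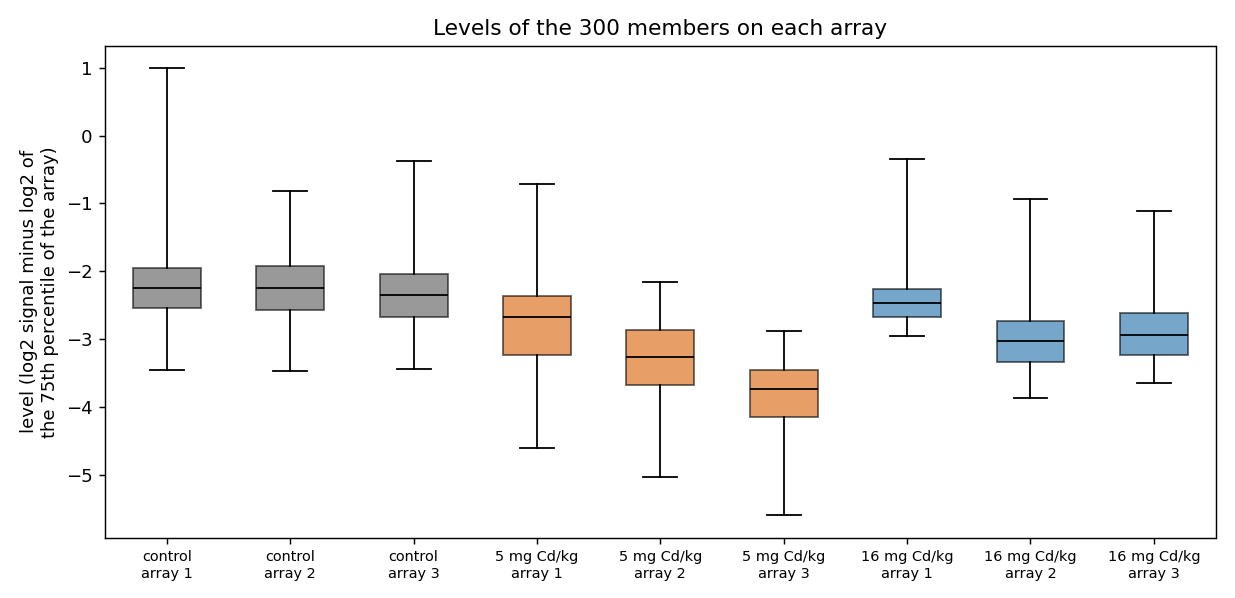
Levels of the 300 members (log2 of the processed signal minus log2 of the 75th percentile of the array, vertical axis) on each array; boxes span the quartiles, lines inside them are medians and whiskers reach the lowest and highest member. The median is -2.35 to -2.24 on the controls, -3.73 to -2.67 at 5 mg Cd/kg and -3.02 to -2.46 at 16 mg Cd/kg, so the cadmium groups overlap.

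The difference in mean level, 5 mg minus control, had a median of -1.08 over members (quartiles -1.31 and -0.80), against -0.25 over all 25915 tested probes. It was negative for 298 of 300 members and under -1 for 168. No array at 5 mg overlapped the controls for 183 members (61%), where 20.8% of all tested probes and 17.2% of the 21213 lay below every control. In limma, 68 members passed an adjusted p of 0.05 as lower at 5 mg than in control, where 5.55% of all tested probes did. The choice of members used this contrast, so nothing is read from either count. Since no member was well above background at 5 mg, its fold has only a lower bound, taken against the lowest level marked as well above background on each array or the probe's own level, whichever was higher. For 270 members the bound of control over 5 mg was above 1, for 30 it was at least 2, and the median was 1.38. For 16 mg over 5 mg it was above 1 for 143 members, at least 2 for 0, and at most 1.75. The 143 became 77 without 16 mg array 1, 231 without the first 5 mg array and 36 without 5 mg array 3, and the 30 became 72 without the first 5 mg array and 11 without 5 mg array 3. The median difference, 16 mg minus 5 mg, was 0.54 over members, against 0.03 over all tested probes. For 45 members every 5 mg array lay below every 16 mg array (15%), where 2.77% of tested probes and 2.55% of the 21213 did so, again by a contrast that the rule used.

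The comparison of 16 mg Cd/kg with control is the one in which the rule asked the same detection of both groups. The limit of 300, however, ranked probes by control level alone, which favours members high in control. The 20 left out all had a control level below -3. The 22 probes that met the rule below -3 had a median difference, 16 mg minus control, of 0.23. Most members were lower at 16 mg than in control: the median difference, 16 mg minus control, was -0.51 (quartiles -0.74 and -0.29). The median over all tested probes was -0.07, and over the 21213 probes detected in both groups 0.13. Lower at 16 mg than in control were 273 of 300 members (91%), against 52.3% of tested probes. Differences were within 0.5 for 141 members (47%) and under -1 for 27 (9%), against 35.3% and 14.0% of tested probes, and above 1 for 0 members. All 3 arrays at 16 mg lay below every control for 124 members and above for 1, where 30.5% and 28.1% of tested probes, and 26.1% and 33.2% of the 21213, did. By order of the 3 means, 254 members stood lowest at 5 mg, higher at 16 mg and highest in control. The order was 5 mg, control, 16 mg in 25, and the 16 mg mean was the lowest of the 3 in 19. The 16 mg mean was nearer to the control mean than to the 5 mg mean in 147 members. These orders use the 5 mg levels, which the rule held low, and the shares over all probes were not computed. Nothing is therefore read from them. Both cadmium groups are set against the same 3 control arrays.

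**Figure D4:**
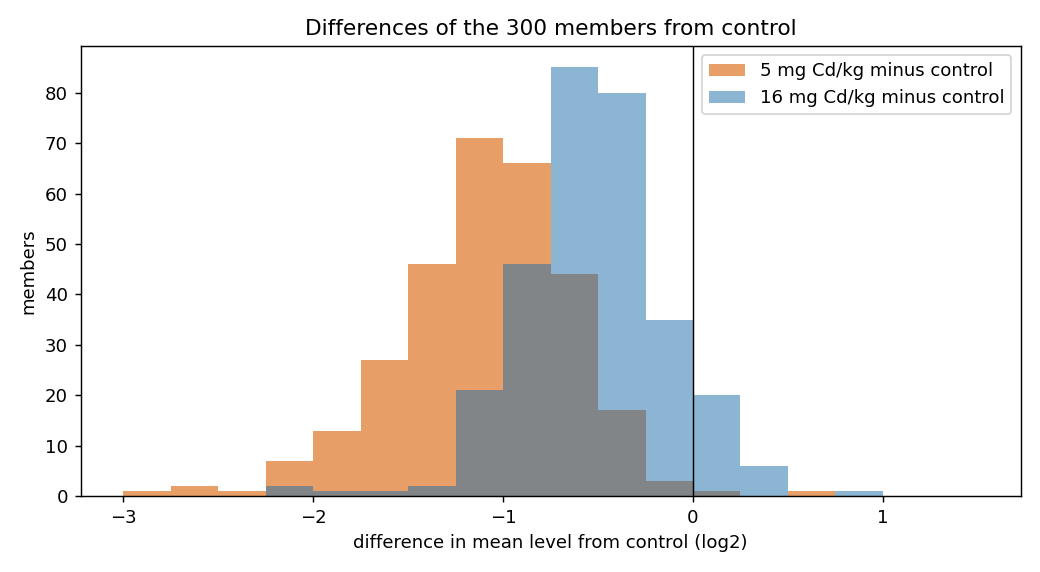
Number of members (vertical axis) by difference in mean level from control (log2, horizontal axis, bins of 0.25), for 5 mg Cd/kg (orange) and 16 mg Cd/kg (blue). The median is -1.08 at 5 mg and -0.51 at 16 mg; both distributions lie mostly below 0 and overlap.

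Fitted over all 9 arrays, limma called 0 members at 16 mg against control, among 0 calls over all tested probes (0% higher and 0% lower; smallest adjusted p of a member 0.112). At an unadjusted p under 0.05, 44 members were lower and 0 higher, where 14.4% and 13.7% of tested probes were. With the 5 mg arrays left out of the fit, limma called 80 members lower and 0 higher at an adjusted p of 0.05. That is 26.7% of members lower, against 22.4% of tested probes lower and 20.2% higher. The share of members that fell was thus near that of all probes, and none of the members was called higher. At an unadjusted p under 0.05 this fit held 114 members lower (38%) and 0 higher, where 29% and 26.2% of tested probes were. The 80 became 0 without control array 1 or 3, 5 without control array 2, 122 when 16 mg array 1 was dropped and 30 when 16 mg array 2 was, and the fit over 9 arrays called 23 members lower without 5 mg array 1. As shares, these were 0%, 1.67%, 40.7%, 10% and 7.67% of members, where 0%, 3.41%, 21.4%, 13.4% and 9.52% of all tested probes were lower in the same fits.

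Members were also set beside the other probes of the same control level that were detected on all control and 16 mg arrays. Between -3 and -2.5, the median difference, 16 mg minus control, was -0.24 for probes that met the rule and 0.42 for the others. Between -2.5 and -2 it was -0.54 and 0.10, and between -2 and -1.5 it was -0.81 and -0.20. The probes undetected at 5 mg thus had the lower median at 16 mg in each of these bins. This was not tested, and both differences share the control arrays that set the bins. The sets in each bin were also split by the 5 mg marks, which the rule used, so nothing is read from this order.

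By slide, on which control, 5 mg and 16 mg arrays lay together, the direction was kept but not the size. The 16 mg minus control median over members was -0.14 on slide 1 (193 of the members lower) and -0.75 on slide 2 (283 lower). Over all tested probes this median was 0.0072 and -0.079. The shares of all probes that were lower were not computed by slide or session, so the counts are a description. Slide 1 held 16 mg array 1, and slide 2 held 16 mg arrays 2 and 3. Within the 1 scan session that held all groups, with 1 array each, the median was -0.11, with 173 members lower and 126 higher. Over all tested probes it was 0.016 in that session. Control arrays 1 and 2 and 5 mg array 1 were each scanned in a session of their own. The remaining session held 5 mg array 3 and 16 mg arrays 2 and 3 and no control. Scan session and dose can thus not be fully told apart. The 5 mg minus control median was -1.03 on slide 1 and -1.58 on slide 2, against -0.056 and -0.22 over all tested probes. The rule used this contrast, so nothing is read from it. The first 5 mg array was alone on slide 3.

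The spread between arrays was widest at 5 mg. The median SD of a member's level was 0.22 for controls, 0.69 at 5 mg and 0.40 at 16 mg, against 0.19, 0.68 and 0.35 over all probes detected on the control and 16 mg arrays. Within the 5 mg group, array 1 held the highest level for 219 members, array 2 for 71 and array 3 for 10. Within the 16 mg group, array 1 held it for 238 members. The shares over all probes were not computed, so these counts are a description. The median level of all probes was also highest on array 1 of each cadmium group (-2.40 at 5 mg and -2.61 at 16 mg).

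The brightest member in controls was contig18549. Its processed signal was 155, 42.2 and 41.97 array units in controls, 5.76, 8.50 and 8.20 at 5 mg, and 9.57, 13.3 and 20.2 at 16 mg. Every cadmium array lay below every control, and control array 1 stood far above the other two. Its level was at least 5.68-fold lower at 5 mg Cd/kg than in controls, or 3.73-fold without control array 1. At 16 mg it differed from control by -2.13 on the log2 scale (SE 0.49, limma adjusted p = 0.112 over 9 arrays and 0.0145 with the 2 groups alone). The probe was named for its high control level, a choice that favours a lower level at 16 mg. Nothing is therefore read from these p-values.

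The second brightest, GYUW2K401BMKTD, had signals of 40.7, 37.7 and 57.3 in controls, 2.48, 7.27 and 5.48 at 5 mg, and 8.86, 6.59 and 13.2 at 16 mg. The controls again stood apart from all 6 cadmium arrays, and 5 mg array 2 overlapped the 16 mg arrays. It was at least 4.02-fold lower at 5 mg than in controls, and at 16 mg it differed from control by -2.16 (SE 0.43, limma adjusted p = 0.112 over 9 arrays and 0.0133 with the 2 groups alone). This member too was named for its control level, and nothing is read from its p-values.

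The largest bounds of 16 mg over 5 mg belonged to contig23433 and contig19110. The signal of contig23433 was 12.3, 16.2 and 15.9 in controls, 6.12, 6.56 and 7.48 at 5 mg, and 38.6, 11.9 and 12.4 at 16 mg. It was at least 1.75-fold higher at 16 mg than at 5 mg, but 16 mg array 1 was more than 2 times the other two, and without it the bound was 0.994, which leaves no fold above 1. The signal of contig19110 was 49.8, 25.8 and 13.6 in controls, 4.52, 2.30 and 4.79 at 5 mg, and 36.3, 8.97 and 14.8 at 16 mg. It was at least 1.66-fold higher at 16 mg than at 5 mg, and here too the first array at 16 mg held the highest value, without which the bound was 0.946. Such a single high array at 16 mg, over 2 times both others, was seen in 6 members for array 1, 4 for array 2 and 10 for array 3.

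Of the members above control at 16 mg, those with the smallest p did not pass the test. GYUW2K401A2S7W had signals of 9.48, 10.2 and 8.94 in controls, 7.07, 2.60 and 3.92 at 5 mg, and 36.8, 7.58 and 13.7 at 16 mg. Its difference, 16 mg minus control, was 0.83 (SE 0.73, limma adjusted p = 0.436) and turned to -0.041 without 16 mg array 1. GYUW2K402IXLMA had signals of 8.94, 11.2 and 9.23 in controls, 2.03, 7.72 and 8.38 at 5 mg, and 8.52, 12.7 and 16.6 at 16 mg. Its difference was 0.44 (SE 0.39, limma adjusted p = 0.443). In signal, the controls of both lay within the range of the 16 mg arrays. In level, all 16 mg arrays of GYUW2K402IXLMA lay above its controls, and it was the 1 member of which this held.

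Of the members below control at 16 mg, contig17345 and contig09219 had the smallest p after the brightest pair. The signal of contig17345 was 37.4, 37.8 and 45.4 in controls, 6.07, 4.59 and 4.06 at 5 mg, and 8.63, 7.15 and 18.8 at 16 mg. It differed from control at 16 mg by -1.81 (SE 0.48, limma adjusted p = 0.112 over 9 arrays and 0.0133 with the 2 groups alone). The signal of contig09219 was 24.1, 25.7 and 18.6 in controls, 5.44, 4.03 and 8.31 at 5 mg, and 7.07, 7.17 and 13.1 at 16 mg. It differed from control at 16 mg by -1.26 (SE 0.35, limma adjusted p = 0.112 over 9 arrays and 0.0144 with the 2 groups alone). In neither did an array at 16 mg reach the signal of a control. Over 9 arrays both passed in 2 of 19 alternative settings: contig17345 had a limma adjusted p of 0.0354 and contig09219 of 0.0357 without 5 mg array 1, and of 0.00405 and 0.00579 with array weights. In these settings 9.52% and 22.2% of all tested probes were called lower. Both members were named for a small p, and contig17345 also held rank 3 by control level, so nothing is read from their p-values.

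**Figure D5:**
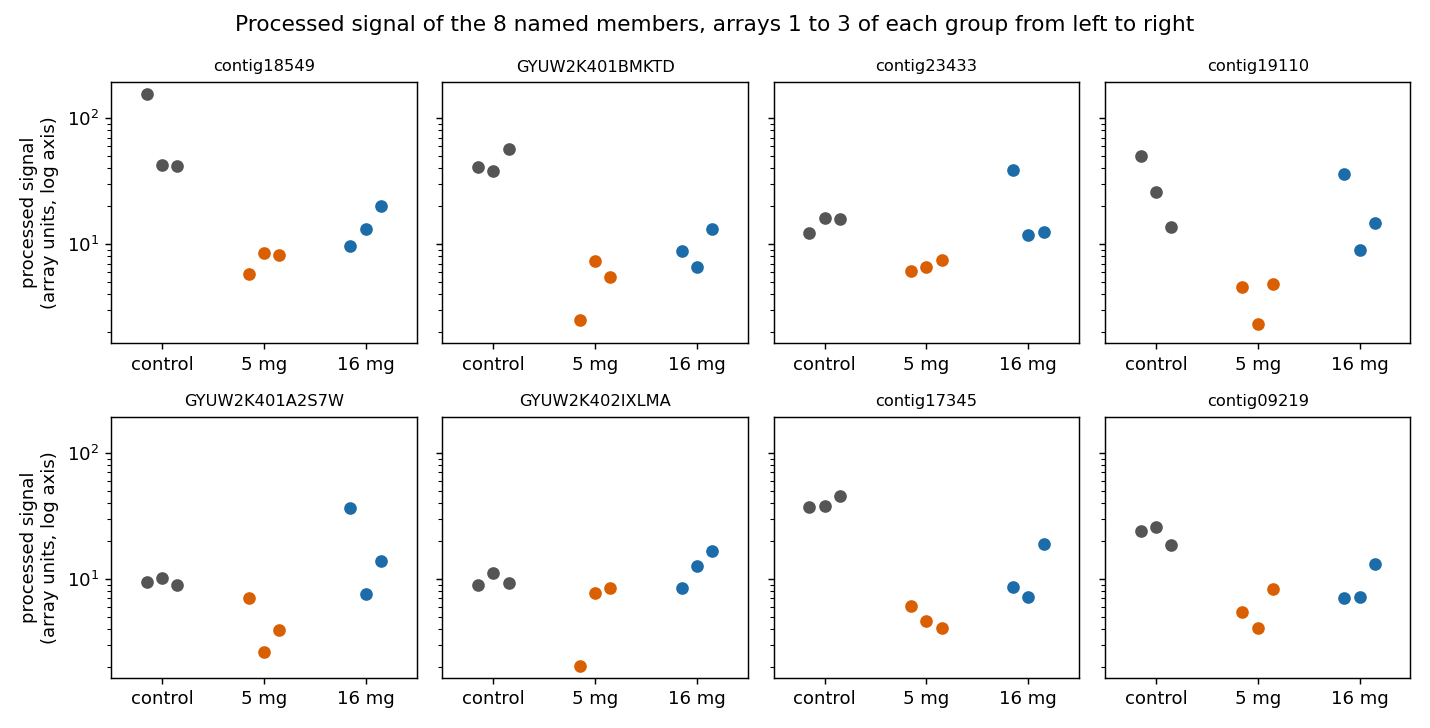
Processed signal (array units, log axis) of the 8 members named in the text, with arrays 1 to 3 of each group from left to right. In contig18549, GYUW2K401BMKTD, contig17345 and contig09219 all cadmium arrays lie below all controls; in contig23433, contig19110 and GYUW2K401A2S7W the first array at 16 mg Cd/kg is the highest of its group.

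Among what the rule did not use, 201 members were named as contigs and 99 as single reads. That is 67% contigs, against 53.0% of all probes, 51.7% of the probes detected on all control and 16 mg arrays, and 69.6% of those lost at both doses. On the array surface, 41.3% of members lay in the left columns, against 49.4% of all probes. Across the 300 members, mean control and mean 16 mg level correlated at r = 0.48, mean control and mean 5 mg level at 0.38, and mean 16 mg and mean 5 mg level at 0.39. These correlations are across probes, which share arrays and are held to a narrow range by the rule, and are given as a description.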

How the data were processed

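Expression was measured on 9 one-colour Agilent arrays. Feature Extraction, version 10.7.3.1, made the deposited intensity values, which are linear, background-subtracted and detrended within an array and not scaled across arrays, per the file headers. The deposited flag columns mark spots as well above background, positive and significant, or outlying. The authors' separate value list for the 9 arrays differs by at most 0.497% from these scanner values. Its scale is linear and not centred, and column medians ran from 7.23 to 15.6 array units.

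Control features (1417) and 63 outlying spots, 1 of them in a member, were left out of fits, means and bounds. The outlying spot kept its mark in the membership rule. A probe was tested (25915 were) if some group had it well above background on each of its arrays. The lmFit and eBayes functions of limma 3.58.1 in R 4.3.3 gave the tests, which were fitted to the 3 groups together, and to the 16 mg and control arrays alone, two-sided, with p-values adjusted by Benjamini-Hochberg over every tested probe. The fit was tested on simulated data. Sample groups came from the titles. Named were the 2 members with the highest control level, the 2 others with the largest bound of 16 mg over 5 mg, and the 2 others with the smallest p on each side of control at 16 mg. Alternatives covered background correction, scaling, the filter, slide, scan session, replicate number, array weights, the authors' value list and single arrays. The median signal stood in for the mean in normexp (offset 50). Members and tests were chosen with earlier results of these data known. Leaving single arrays out of the bounds was chosen after seeing the data.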

Additional observations from a re-analysis of the deposited data

How the results depend on the processing

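The count of 0 members called at 16 mg in the fit over 9 arrays stood under the alternatives, except for 62 lower with array weights (20.7% of members, where 22.2% of tested probes were lower) and a range of 0 to 23 with single arrays left out, where 23 (7.67%, against 9.52% of tested probes) came without 5 mg array 1. The count of 80 in the fit of 2 groups was 2 with normexp and quantile (0.667%, against 10.69% of tested probes lower). It was 32 scaled on the spike-ins (10.67%, against 13.6%) and 23 blocked on slide (7.67%, against 12.3%). It was 0 with no filter on dim probes or the scan session as a block, where 0% of all tested probes were called lower too. Scaled on the median of probes above background on all arrays, it rose to 116 (38.7%, against 28.5%). With single arrays left out it ranged from 0 to 122: it was 0 without control array 1 or 3, 5 without control array 2, 30 when 16 mg array 2 was dropped and 122 when 16 mg array 1 was. Fewer or more tested probes, or fewer arrays, changed some of these counts by construction, and otherwise the cause was not tested. All called members were lower in each of these settings. With the replicate number as a block, the counts were 0 and 83 (0% and 27.7% of members, against 0% and 23.9% of tested probes lower). Same-numbered arrays deviated together at r = -0.10 to 0.33, so the numbers were not taken as pairing them.

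The median differences of the members kept their sign. With normexp and quantile they shrank to -0.084 for 5 mg minus control, -0.039 for 16 mg minus control and 0.051 for 16 mg minus 5 mg, a setting whose offset of 50 exceeds the members' median signal on every array. Scaled on the spike-ins, 5 mg minus control was -1.45, with a median of all tested probes of -0.62, against -0.25 as reported. With the scan session as a block, 16 mg minus control was -0.079. With single arrays left out the 3 medians ranged from -1.34 to -0.78, -0.70 to -0.40 and 0.23 to 0.81, the lowest of the last without 5 mg array 3.

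The 320 probes of the rule became 321 to 1134 without single arrays (538, 539 and 785 without 5 mg array 1, 2 or 3, and 1134 without 16 mg array 1), 83 and 114 with the highest or lowest cutoff on every array, and 18 with 1 relative cutoff. The rule with 5 and 16 mg exchanged gave 2 probes, and with control and 5 mg exchanged 4. Of the named members, GYUW2K401A2S7W turned to -0.041 without 16 mg array 1 and ranged up to 1.45 without single arrays. It had not passed the test as reported. At 16 mg contig17345 and contig09219, with an adjusted p of 0.112 each as reported, passed limma's test with array weights and without 5 mg array 1, and ranged up to 0.556 and 0.620 over 19 alternatives. They were named for a small p, so nothing is read from these passes. The members' low signal over background limits every fold, and 3 arrays a group limit the precision.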

Other observations

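With the mark for a positive and significant signal in place of the mark for well above background, 223 probes met the rule. None of the 300 members was among them, since 0 members lacked that mark on all 3 arrays at 5 mg Cd/kg, 1 member had it on 1 array, 33 had it on 2 and 266 on all 3.

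All 6 cadmium arrays lay below every control in level for 104 of the 300 members (34.7%), where 13.2% of the probes detected on all control and 16 mg arrays did. The rule used the 5 mg arrays and both cadmium groups share the controls, so this is a description.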
